A study of Mus musculus with 19 samples.

Results

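The mRNAs of the respiratory chain and the ATP synthase were followed in mouse liver across 4 treatment groups. The members were the protein-coding genes whose symbols begin with mt-Nd, mt-Co, mt-Cytb, mt-Atp, Nduf, Sdha to Sdhd, Uqcr, Atp5, or Cox followed by a digit of 4 to 8. This gave 111 of 21794 protein-coding genes, of which 13 are encoded by the mitochondrial genome and 98 by nuclear chromosomes. The choice was made by symbol alone and used no measured value.

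The material was liver RNA of male C57BL/6J mice, 24 weeks old. The groups were WSD+beta-Glucan (n = 4 libraries), WSD (n = 5), CTRL+beta-Glucan (n = 5) and CTRL (n = 5). WSD is left unexplained in the labels, and the series title ties the study to oat beta-glucan, a soluble cereal fibre, and to fatty liver disease. No genetic change or second agent is given for any group, and nothing says that each library is a different mouse, so p-values measure the spread between these libraries, which may be technical.

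The respiratory chain passes electrons from NADH (complex I) or succinate (complex II) through ubiquinone, complex III, cytochrome c and complex IV to oxygen, and complexes I, III and IV pump protons across the inner mitochondrial membrane. ATP synthase, complex V, lets the protons flow back and makes ATP. Some membrane subunits of complexes I and IV, cytochrome b of complex III and a pair of membrane subunits of complex V are read from mitochondrial DNA. Complex II is wholly nuclear, and the other subunits are nuclear genes whose proteins are imported. In liver the chain serves fatty acid oxidation, urea synthesis and gluconeogenesis, all of which depend on mitochondrial ATP or redox balance.

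Libraries held between 17253823 and 23450232 estimated reads. Marker lists showed a hepatocyte signal in every library, and it was weaker in WSD: the summed level of 10 hepatocyte markers was 60830 to 77970 CPM (counts relative to library size after TMM scaling, the trimmed mean of M values) in WSD and 122600 to 159000 CPM in CTRL. The summed level of 10 macrophage and monocyte markers was 616 to 767 CPM in WSD and 42.0 to 110 CPM in CTRL. With TMM scaling, 9 of 10 hepatocyte markers were lower in WSD (edgeR, adjusted p under 0.05), against 27.1% of all genes tested. All 10 macrophage and all 5 T and NK cell markers were higher, against 26.0% of all genes. So were 4 of 6 endothelial and 5 of 6 stellate and fibroblast markers. Of the other lists, 1 of 4 B cell, 2 of 5 cholangiocyte and 3 of 5 tested pericyte and smooth muscle markers were higher, and none of these was lower. With library totals in place of TMM, 6 hepatocyte markers were lower and none higher, where 4.54% of all genes were lower and 57.9% higher. All macrophage and T and NK cell markers were higher with totals too. In bulk tissue, fewer cells of a type and less RNA per cell cannot be told apart, and the part of cell composition in the results on the respiratory chain was not tested.

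Some reads of the mitochondrial members were assigned to nuclear copies of the same sequence, and this bears on which of these genes can be read singly. The transcript of mt-Co2, subunit 2 of cytochrome oxidase, has 684 bases, and the pseudogene Gm28661 on chromosome 1 has 681, all identical to it. For mt-Co3, subunit 3 of the same enzyme, 783 of 784 bases recur without a difference in Gm28437, and for mt-Atp6, the a subunit of ATP synthase, 678 of 681 bases recur in Gm10925, both also on chromosome 1. For mt-Co1, the catalytic subunit of cytochrome oxidase, the copy Gm29216 has 492 bases and matches bases 1054 to 1545 at 486 positions. The ends of each pair, taken from the GENCODE M21 transcripts, are shown to let the difference be seen. Capitals mark bases past the end of the copy in the pairs of mt-Co2, mt-Co3 and mt-Atp6, and mismatched bases in the pair of mt-Co1, whose last mismatch is at base 13 of the copy.
mt-Co2, end: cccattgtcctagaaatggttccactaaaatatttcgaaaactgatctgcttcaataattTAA
Gm28661, end: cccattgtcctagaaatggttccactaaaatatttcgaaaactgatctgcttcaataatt
mt-Co3, end: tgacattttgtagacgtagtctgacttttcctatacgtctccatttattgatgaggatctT
Gm28437, end: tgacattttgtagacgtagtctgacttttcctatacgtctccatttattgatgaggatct
mt-Atp6, end: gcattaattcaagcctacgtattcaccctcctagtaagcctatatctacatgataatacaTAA
Gm10925, end: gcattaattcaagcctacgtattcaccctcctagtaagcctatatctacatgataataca
mt-Co1, from base 1054: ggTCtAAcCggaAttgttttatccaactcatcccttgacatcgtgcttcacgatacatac
Gm29216, start: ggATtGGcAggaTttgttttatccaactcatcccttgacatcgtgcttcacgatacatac

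Over all libraries, 1600221 estimated reads were placed on Gm28661 and 106234 on mt-Co2. The same split gave 1269966 reads to Gm28437 and 192917 to mt-Co3, 767238 to Gm10925 and 244757 to mt-Atp6, and 1158024 to Gm29216 and 4445198 to mt-Co1. For mt-Co2, mt-Co3 and mt-Atp6, no base inside the copy tells the member and its copy apart, so the split between them does not come from the sequence of the reads there. The share left on the mitochondrial gene varied between libraries, with 2.25 to 14.2% for mt-Co2, 6.44 to 23.4% for mt-Co3, 14.1 to 47.6% for mt-Atp6 and 74.2 to 83.4% for mt-Co1. For mt-Co3 this share averaged 10.1 ± 2.50% in WSD and 17.8 ± 4.62% in CTRL (SD, n = 5 each). In WSD against CTRL each of these 4 members is therefore given both alone and together with its copies. Over all libraries the mt-Nd and mt-Cytb transcripts lost few reads in this way, the highest being 2000 on Gm28438 beside 79468 on mt-Nd3, but these reads were not spread evenly. In CTRL replicate 2 mt-Nd3 was measured at 206 CPM alone and 267 CPM with its copies, and in CTRL+beta-Glucan replicate 4 at 172 and 207 CPM. Overlapping transcripts (mt-Nd4l with mt-Nd4, mt-Atp8 with mt-Atp6) can also trade reads.

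The mitochondrial-genome members together took 2.08 to 3.97% of all counts of a library, and the nuclear members 1.01 to 1.54%. Mitochondrial members averaged 3.22 ± 0.455% of counts in WSD+beta-Glucan (SD, n = 4), 2.76 ± 0.293% in WSD, 2.94 ± 0.628% in CTRL+beta-Glucan and 2.90 ± 0.750% in CTRL (SD, n = 5 each). The nuclear members averaged 1.35 ± 0.121% in WSD and 1.15 ± 0.0974% in CTRL. The direction for the nuclear sum on total counts is opposite to that after TMM scaling, under which it averaged 11130 ± 971 CPM in WSD and 13070 ± 755 CPM in CTRL. The top 50 genes by abundance held 32.5 ± 1.08% of each library in WSD and 40.4 ± 1.26% in CTRL, and TMM discounts such a difference while library totals do not.

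A quantity that no scaling changes is the ratio of the mitochondrial to the nuclear sum within a library. It was 1.54, 2.14, 2.10, 2.26 and 2.30 in the WSD libraries, against 2.57, 3.20, 1.93, 1.74 and 3.26 in the CTRL libraries. The CTRL libraries lay in a high set of 3 and a low pair (replicates 3 and 4), and the groups overlapped because of the pair. With the nuclear copies added to the mitochondrial genes the ratio averaged 2.96 ± 0.360 in WSD and 3.52 ± 0.991 in CTRL. In WSD+beta-Glucan the ratio was 2.75, 3.07, 1.99 and 2.39, and in CTRL+beta-Glucan it was 2.35, 2.10, 1.89, 2.60 and 3.34, so these groups overlapped each other and both groups without beta-glucan.

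**Figure D1:**
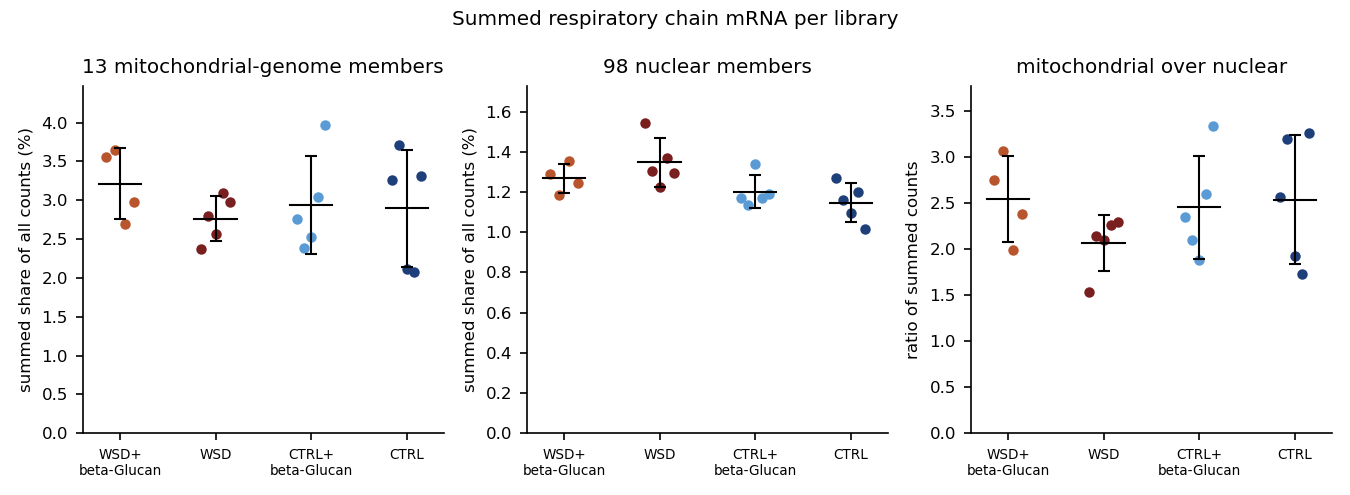
Summed counts of the 13 mitochondrial-genome members and of the 98 nuclear members as a share of all counts (%), and the ratio of both sums, by group. Points are libraries, lines and bars are means ± SD. The mitochondrial share of the WSD libraries (2.38 to 3.09%) lies inside the range of the CTRL libraries (2.08 to 3.71%), and 2 CTRL libraries have the low ratios 1.93 and 1.74.

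The diet comparison, WSD against CTRL, was tested on 13 mitochondrial and 92 nuclear members that passed the filter on low counts. With TMM scaling, 30 nuclear members fell and 2 rose in WSD, where 27.1% of all genes tested were lower and 26.0% higher (edgeR, adjusted p under 0.05). The share of nuclear members that fell, 32.6%, stood near the background of all genes, and few rose. All WSD libraries lay below all CTRL libraries for 15 of 92 nuclear members and for 2507 of 13594 genes tested. They lay above for 2 nuclear members and 2714 genes, so such a separation was common among all genes. Of the mitochondrial members, 8 fell and none rose (DESeq2 also called 8 lower and none higher, and 9 had an unadjusted edgeR p under 0.05). The median log2 fold change was -0.15 over the nuclear members, -0.62 over the mitochondrial members and -0.04 over all genes. This mitochondrial count and median take mt-Co1, mt-Co2, mt-Co3 and mt-Atp6 without their copies, and mt-Co3 did not pass with them.

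These directions depend on the scaling. With library totals in place of TMM, the median of all genes moved by 0.47 on the log2 scale in WSD against CTRL, 58 nuclear members were higher and 1 lower, and 1 mitochondrial member (mt-Co3) was lower, where 57.9% of all genes were higher and 4.54% lower. Relative to the median of all genes, the nuclear members stood at -0.11 and the mitochondrial members, without copies, at -0.57 under either scaling. Below that median were 71 of 92 nuclear and 13 of 13 mitochondrial members. A change of scaling moves all genes of a comparison by nearly the same amount. This agreement was thus fixed in advance and is not evidence that the positions are robust. Only Ndufa4l2 and Sdhaf1 were higher and only Cox6b2 and mt-Co3 were lower past the threshold under both scalings, among all members, with mt-Co3 counted without its nuclear copies (with them its adjusted p was 0.0949 by edgeR with TMM). Sdha, Cox7a2l, Uqcrc1 and Uqcrc2 were called lower with TMM and higher with totals. The changes that follow are TMM values and thus relative to the bulk of genes.

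**Figure D2:**
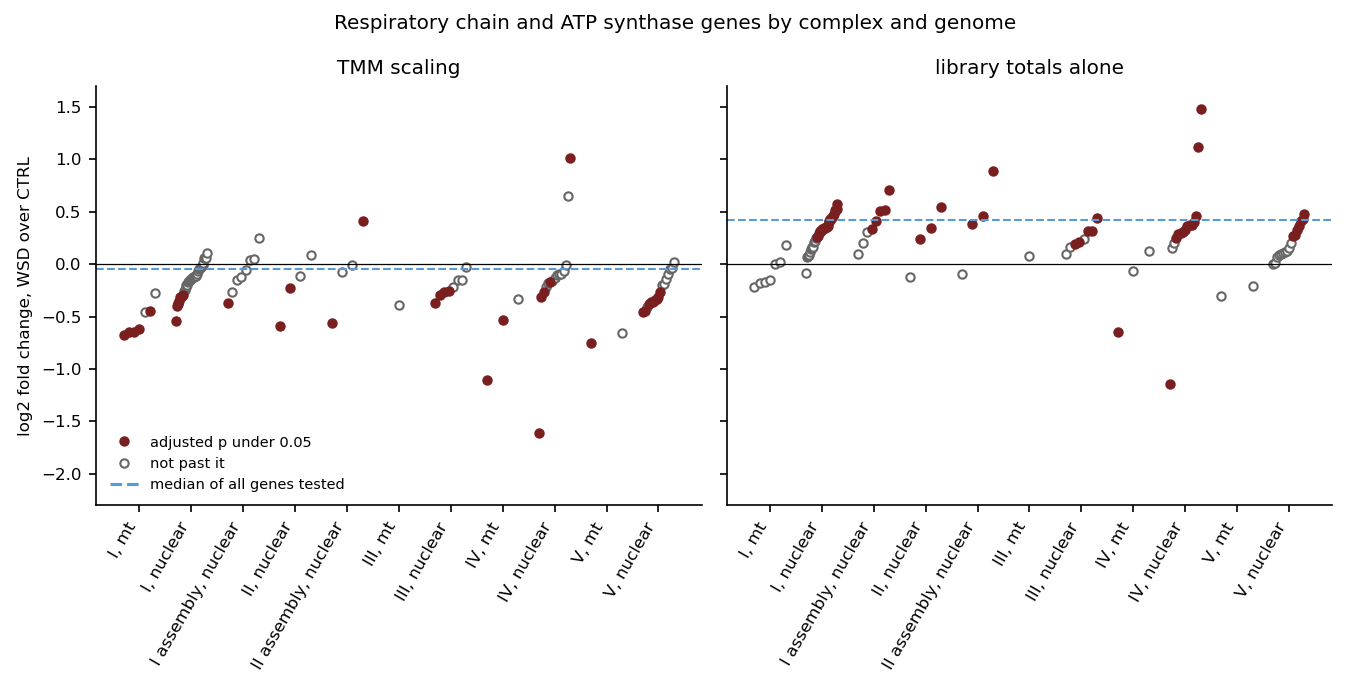
Log2 fold change of WSD over CTRL for each tested member, counted without copies, by complex and genome (mt, mitochondrial). TMM scaling is on the left and library totals on the right. Filled points have an edgeR adjusted p under 0.05 and the dashed line is the median of all genes tested (-0.04 and 0.43). The members keep their places relative to the dashed line, as they must where a change of scaling moves all genes by nearly the same amount.

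Complex I, the NADH dehydrogenase, held 36 nuclear subunits, of which 9 (25.0%, against 27.1% of all genes) fell in WSD and none rose with TMM scaling. With library totals none fell and 23 rose, where 57.9% of all genes were higher. Of the 7 nuclear core subunits, which carry the flavin and the iron-sulphur clusters, 4 fell, and of the 29 accessory subunits 5 did. Ndufb9, an accessory subunit of the membrane arm, was measured at 171, 136, 149, 169 and 132 CPM in WSD and at 248, 211, 222, 239 and 186 CPM in CTRL, without overlap. It fell by 0.54 on the log2 scale (SE 0.10, adjusted p = 0.000147 by edgeR). Ndufv1, the flavin-bearing subunit where NADH is oxidised, was measured at 160, 147, 155, 157 and 138 CPM in WSD and at 203, 190, 197, 218 and 191 CPM in CTRL, and fell by 0.40 (SE 0.08, adjusted p = 0.000241 by edgeR). All 5 WSD libraries lay below all 5 CTRL libraries for both genes.

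Among the other core subunits, Ndufs7, which carries the last iron-sulphur cluster before ubiquinone, fell by 0.38 (adjusted p = 0.00515 by edgeR), and its groups overlapped. Ndufv2, next to Ndufv1 in the peripheral arm, fell by 0.30. Ndufs1, the largest subunit, stood at -0.26 with an adjusted p of 0.053 by edgeR. The accessory subunits Ndufb2, Ndufb5, Ndufa12 and Ndufb11 fell by 0.30 to 0.37. Of the 8 assembly factors of the rule, Ndufaf4 fell (by 0.37, adjusted p = 0.0176 by edgeR) and the other 7 did not pass.

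Complex II, succinate dehydrogenase, has 4 subunits, and they did not move alike. Sdhd, a membrane anchor that binds haem and ubiquinone, was measured at 135, 131, 130, 148 and 115 CPM in WSD and at 217, 177, 186, 201 and 210 CPM in CTRL, and fell by 0.59 (SE 0.10, adjusted p = 8.6e-05 by edgeR). Sdhc, the other anchor, stood at 0.08 (adjusted p = 0.416 by edgeR) and Sdhb, the iron-sulphur subunit, at -0.11 (adjusted p = 0.313 by edgeR). Sdha, the flavoprotein, was called at -0.23 with an adjusted p of 0.0492 by edgeR, a call that 20 of 29 alternatives ended. The ratio of Sdhd to Sdhc in TPM (transcript abundance corrected for length) averaged 107 ± 15.9% in WSD and 148 ± 31.3% in CTRL, and the groups overlapped.

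Of the 4 assembly factors of complex II, 2 were called, in opposite directions. Sdhaf1, which helps to insert iron-sulphur clusters into Sdhb, was measured at 20.1, 13.2, 12.9, 14.9 and 14.1 CPM in WSD and at 11.0, 10.4, 12.1, 11.7 and 11.1 CPM in CTRL, and rose by 0.42 (SE 0.14, adjusted p = 0.0156 by edgeR). Without WSD replicate 1, the highest library, the adjusted p was 0.0627. Sdhaf3, a partner of Sdhaf1, fell by 0.56 (SE 0.13, adjusted p = 0.00113 by edgeR) at 2.81, 3.80, 2.94, 2.61 and 3.17 CPM in WSD and 5.12, 4.27, 4.20, 4.97 and 4.12 CPM in CTRL. Both were low in abundance beside the subunits, and neither overlapped between the groups. Sdhaf2 and Sdhaf4 stood at -0.01 and -0.08 and did not pass (adjusted p = 0.943 and 0.577 by edgeR).

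Complex III, which moves electrons from ubiquinol to cytochrome c, had 8 nuclear members. Of these, 4 fell in WSD with TMM scaling, where 27.1% of all genes were lower. With library totals 5 rose, where 57.9% of all genes were higher. Uqcrc1, a core subunit, was measured at 229, 218, 226, 247 and 223 CPM in WSD and at 276, 270, 275, 291 and 263 CPM in CTRL, without overlap, and fell by 0.27 (SE 0.07, adjusted p = 0.00344 by edgeR). Uqcrh, the hinge protein that docks cytochrome c1, fell by 0.37, Uqcrfs1, the Rieske iron-sulphur protein, by 0.30, and Uqcrc2, the second core subunit, by 0.25. The 4 small subunits Uqcr10, Uqcr11, Uqcrb and Uqcrq had log2 fold changes of -0.22, -0.15, -0.15 and -0.02 and did not pass.

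Complex IV, cytochrome c oxidase, had 20 nuclear members by the rule, among them tissue isoforms. Of these, 15 passed the filter on low counts, and 4 (26.7%, against 27.1% of all genes) fell and 1 rose in WSD. With library totals 1 fell and 12 rose, where 57.9% of all genes were higher. Cox7b, a subunit needed for assembly of the complex, was measured at 134, 111, 108, 135 and 115 CPM in WSD and at 165, 155, 143, 144 and 144 CPM in CTRL, and fell by 0.31 (SE 0.09, adjusted p = 0.00692 by edgeR). The subunits Cox4i1, Cox5a, Cox5b, Cox6a1, Cox6b1, Cox7a2 and Cox8a, the forms known from liver, had log2 fold changes of -0.16, -0.13, -0.18, -0.06, -0.09, -0.21 and -0.01, and none passed. Cox7a2l was called at -0.17 with an adjusted p of 0.043 by edgeR, a call that 15 of 29 alternatives ended.

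Ndufa4, now counted as a subunit of complex IV, and its relative Ndufa4l2, known as a hypoxia-induced gene, changed in opposite directions with TMM scaling. Ndufa4l2 was measured at 1.66, 1.78, 1.86, 1.69 and 2.07 CPM in WSD and at 0.956, 0.975, 0.933, 1.01 and 0.618 CPM in CTRL, and rose by 1.01 (SE 0.23, adjusted p = 0.0011 by edgeR). Ndufa4 fell by 0.26 (adjusted p = 0.0192 by edgeR) and with library totals stood at 0.20. In TPM, Ndufa4l2 was 0.411 ± 0.0657% of Ndufa4 in WSD and 0.162 ± 0.0229% in CTRL (SD, n = 5 each), and the ranges of 0.333 to 0.494% and 0.123 to 0.182% did not overlap. Ndufa4 thus remained the prevailing form in every group. Markers of several cell types were also higher in WSD, with median log2 fold changes of 3.39 (macrophage), 2.31 (T and NK cell) and 1.76 (stellate). The medians were 0.76 for endothelial and 0.68 for pericyte and smooth muscle markers, 1 of the latter standing at -1.9. Endothelial markers summed to 126 to 190 CPM in WSD and 44.2 to 142 CPM in CTRL. Pericyte and smooth muscle ones summed to 60.6 to 99.0 CPM in WSD and 27.8 to 71.6 CPM in CTRL. Both pairs of ranges overlapped, and the part of any cell type in the change of Ndufa4l2 was not tested.

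Cox6b2, known as the testis form of Cox6b1, fell by 1.62 (SE 0.43, adjusted p = 0.00387 by edgeR) on few reads, 48 over the WSD libraries and 114 over the CTRL libraries. It was 0.256 ± 0.0703% of Cox6b1 in WSD and 0.750 ± 0.329% in CTRL, in TPM. Of the other isoforms known from muscle, lung or testis, Cox7b2 and Cox8c had no read in any library, and Cox4i2, Cox6a2 and Cox8b had 27, 27 and 13 reads over the WSD libraries and 4, 1 and 4 over the CTRL libraries. They were not tested. Cox7a1, the muscle form of Cox7a2, averaged 1.71 CPM in WSD and 1.09 CPM in CTRL, with an adjusted p of 0.069 by edgeR. The summed level of 10 skeletal and cardiac muscle markers averaged 1.09 ± 0.277 CPM in WSD and 0.838 ± 0.172 CPM in CTRL, with 5 of 10 at 0 in each group, and Ucp1, which defines brown fat, had no read in either group. Of the 3 tested genes of the brown fat list, 1 was higher in WSD and 2 lower, and the only tested gene of the white fat list was higher.

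Complex V, ATP synthase, had 18 nuclear members, of which 17 were tested. With TMM scaling 9 fell in WSD and none rose, where 27.1% of all genes were lower. With library totals none fell and 7 rose, where 57.9% of all genes were higher. Atp5b, the catalytic beta subunit and the nuclear member with the highest mean TPM in every group, was measured at 863, 923, 901, 995 and 843 CPM in WSD and at 1226, 1182, 1259, 1288 and 1232 CPM in CTRL. It fell by 0.45 (SE 0.08, adjusted p = 0.0001 by edgeR), but with an offset for transcript length the adjusted p was 0.155. Atp5a1, the alpha subunit, fell by 0.38, and Atp5o, the stalk subunit that confers oligomycin sensitivity, by 0.46. For each of these 3 genes all WSD libraries lay below all CTRL libraries. Atp5g1 and Atp5g3, which encode the identical mature c subunit of the membrane ring, fell by 0.33 and 0.36.

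The third c subunit gene, Atp5g2, stood at -0.41 with an adjusted p of 0.278 by edgeR, but 42923 reads were placed on its pseudogene Gm10175 and 2851 on the gene, and with copies added it stood at -0.08. The complex V members that also fell were Atp5d, Atp5f1, Atp5h and Atp5l, counted without copies. For Atp5l, 9119 reads were placed on its pseudogene Gm10221 and 40710 on the gene. Small subunits such as Atp5e, Atp5j2, Atp5k and Atp5mpl had log2 fold changes of -0.05, -0.10, 0.02 and -0.14 and did not pass. Across the 92 nuclear members the log2 fold change was related to mean CPM with a Spearman rho of -0.31 and to effective length with a rho of -0.18, and across 13165 protein-coding genes tested the values were -0.43 and -0.05. These points share their libraries and are given as a description.

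**Figure D3:**
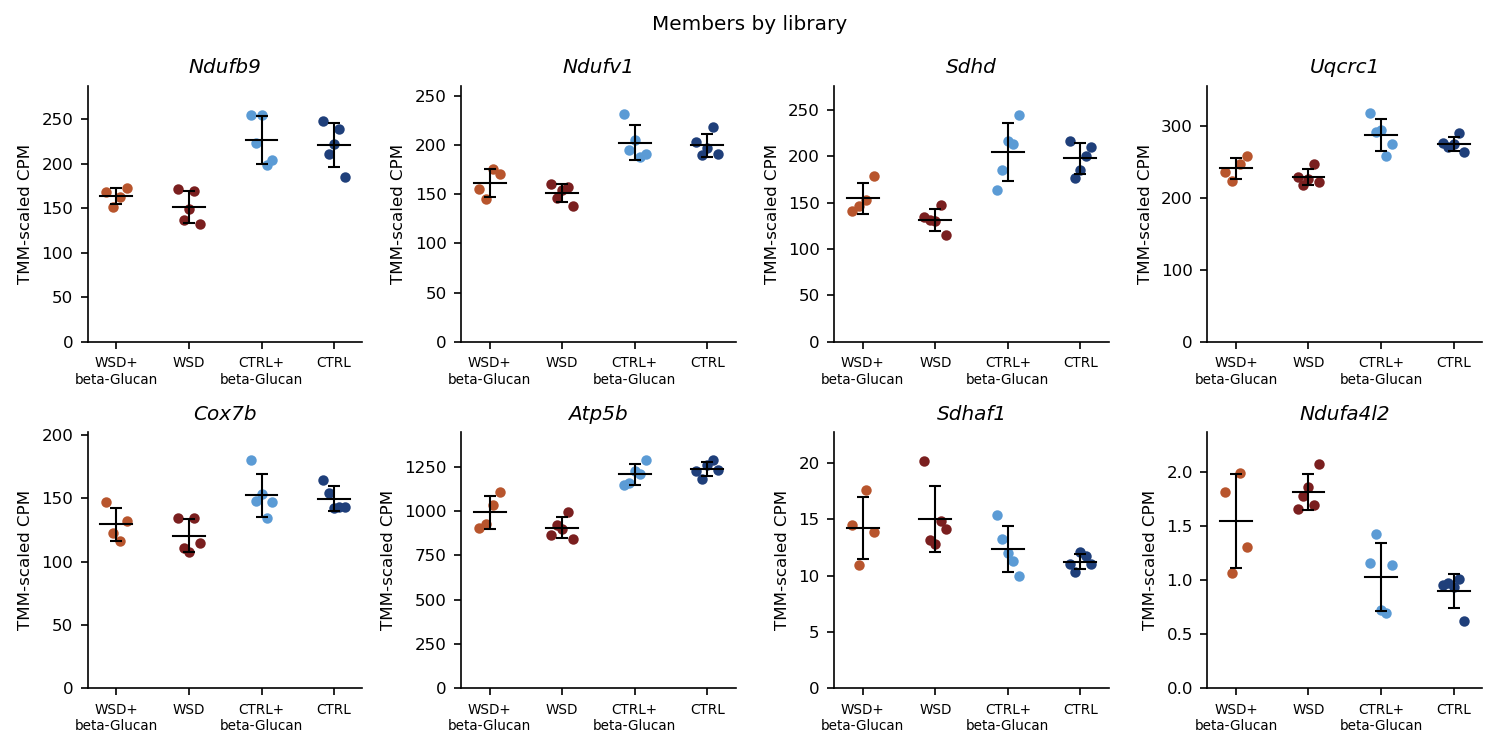
TMM-scaled CPM of 8 members by group, each panel with its own axis from 0. Points are libraries, lines and bars are means ± SD. For Ndufb9, Ndufv1, Sdhd, Uqcrc1, Cox7b and Atp5b every WSD library lies below every CTRL library, and for Sdhaf1 and Ndufa4l2 above, while on library totals only the last pair remained past the threshold in the same direction. Over all 13594 genes tested, 2507 lay wholly below and 2714 wholly above.

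Among the mitochondrial-genome members with few reads on copies, the complex I subunit mt-Nd1 was measured at 1534, 1457, 1442, 1889 and 1577 CPM in WSD and at 2792, 2848, 1821, 1693 and 3178 CPM in CTRL. It fell by 0.64 (SE 0.18, adjusted p = 0.00446 by edgeR), and its groups overlapped at CTRL replicates 3 and 4. The complex I subunits mt-Nd2, mt-Nd4l, mt-Nd5 and mt-Nd6 fell by 0.68, 0.62, 0.65 and 0.45. Over 29 alternatives the calls of mt-Nd4l and mt-Nd5 were lost in 11 each, that of mt-Nd6 in 4 with 1 reversal, and that of mt-Nd2 in 1. The 29 include the fit without CTRL replicates 3 and 4, chosen after seeing the data, which favours lower calls of these genes. They also include fits that leave out a library of the beta-glucan groups, so the tallies can make a call look firmer. mt-Nd3 stood at -0.28 alone and -0.34 with its copies, without a call, mt-Nd4 at -0.46, and mt-Cytb, the cytochrome b of complex III, at -0.39 with an adjusted p of 0.089 by edgeR.

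CTRL replicates 3 and 4 were the lowest CTRL libraries for mt-Nd1, mt-Nd2, mt-Nd4, mt-Nd5, mt-Cytb and mt-Co1 alike. This was not so for mt-Co2, mt-Co3 and mt-Atp6 counted alone. Calls of members that move together by library are not separate observations. How many mitochondrial members passed rested on single libraries. It was 4 without WSD replicate 1, 2 or 3 or without CTRL replicate 2 or 5, against 8 with all libraries. mt-Co1, the most abundant member in TPM, was measured at 7084, 9115, 8888, 10320 and 9391 CPM in WSD and at 13990, 15610, 10040, 9168 and 16100 CPM in CTRL, and fell by 0.54 (SE 0.18, adjusted p = 0.0174 by edgeR), or by 0.51 with its copies (adjusted p = 0.015 by edgeR). The call was lost without WSD replicate 1 or CTRL replicate 5.

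The copies mattered most for mt-Co3. Alone it was measured at 198, 310, 277, 478 and 366 CPM in WSD and at 640, 896, 577, 692 and 705 CPM in CTRL, and fell by 1.11 (SE 0.19, adjusted p = 7.7e-05 by edgeR), the lowest value among the mitochondrial members. With its copies added it was measured at 3069, 3105, 2916, 3649 and 3157 CPM in WSD and at 4953, 4814, 2786, 2951 and 5330 CPM in CTRL, and the log2 fold change was -0.39 (SE 0.19, adjusted p = 0.0949 by edgeR). The separation of the groups in the first form was thus absent in the second. mt-Atp6 fell by 0.75 alone and by 0.56 with its copies (adjusted p = 0.0308 and 0.0376 by edgeR), and its call was lost in 10 of 29 alternatives. mt-Co2 stood at -0.33 alone and at -0.37 with its copies (adjusted p = 0.416 and 0.0532 by edgeR). mt-Atp8, the other mitochondrial subunit of ATP synthase, stood at -0.66 with an adjusted p of 0.132 by edgeR.

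**Figure D4:**
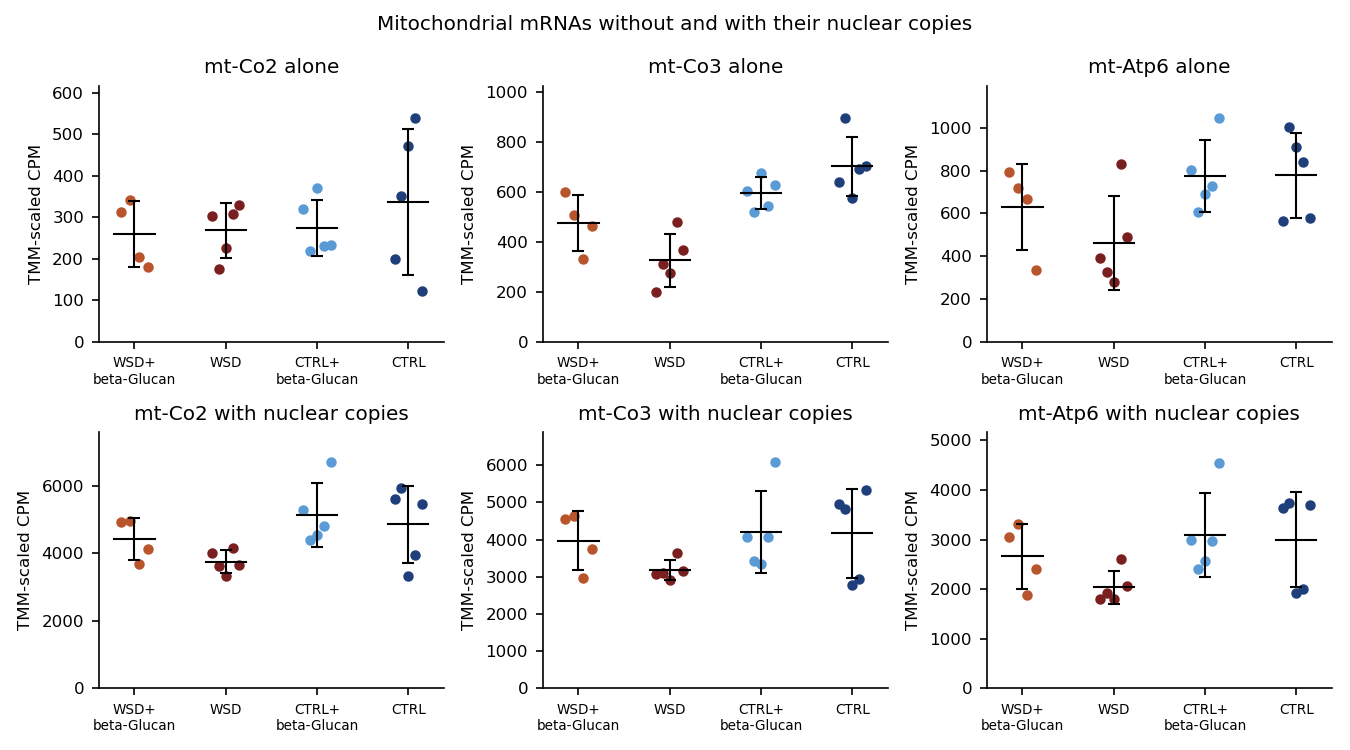
TMM-scaled CPM of mt-Co2, mt-Co3 and mt-Atp6 by group, counted alone (top) and with the reads of their nuclear copies (bottom). Points are libraries, lines and bars are means ± SD. The mt-Co3 libraries of WSD (198 to 478 CPM) and CTRL (577 to 896 CPM) are apart when counted alone and overlap with copies, at 2916 to 3649 CPM in WSD and 2786 to 5330 CPM in CTRL.

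The diet effect was also measured in the presence of beta-glucan, with libraries that share no sample with the first comparison. Both comparisons come from 1 fit and share its estimate of spread, so their calls are not fully independent. In WSD+beta-Glucan against CTRL+beta-Glucan, 21 nuclear members fell and none rose with TMM scaling, where 15.2% of all genes tested were lower and 19.1% higher (DESeq2 called 27 lower and none higher, and 39 had an unadjusted edgeR p under 0.05). With library totals 1 fell and 10 rose, where 2.83% of all genes were lower and 37.8% higher. Of the marker lists, 6 of 10 hepatocyte markers were lower with TMM scaling, and with library totals 5 were lower and 1 higher. Their summed level was 78390 to 114400 CPM in WSD+beta-Glucan and 135500 to 174000 CPM in CTRL+beta-Glucan. All 10 macrophage and monocyte markers were higher, at 353 to 443 CPM in WSD+beta-Glucan and 38.7 to 133 CPM in CTRL+beta-Glucan, and the part of these cells in the counts was not tested. The median was -0.21 over the nuclear members, -0.17 over the mitochondrial members and -0.01 over all genes. No mitochondrial member passed in edgeR, 2 had an unadjusted p under 0.05, and DESeq2 called 1. Without WSD+beta-Glucan replicate 2 the count of nuclear members that fell was 13.

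Of the nuclear members that fell with TMM scaling, 18 did so in both diet comparisons, which is 60.0% of the 30 and 85.7% of the 21. Over all genes 1687 were lower in both, which is 45.8% and 81.8% of the genes lower in each. The shared members were Ndufa12, Ndufb2, Ndufb5, Ndufb9, Ndufb11, Ndufs7 and Ndufv1 of complex I, Sdhd of complex II, Uqcrc1, Uqcrfs1 and Uqcrh of complex III, Cox6b2 of complex IV, and Atp5b, Atp5d, Atp5g1, Atp5g3, Atp5h and Atp5o of complex V. Ndufa6, Ndufa11 and Cox5b passed only in the comparison with beta-glucan, at -0.30, -0.38 and -0.30, and no difference between the comparisons passed the test for them.

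Ndufs7 was measured at 75.0, 60.1, 73.7 and 74.4 CPM in WSD+beta-Glucan and at 126, 100, 123, 90.7 and 98.2 CPM in CTRL+beta-Glucan, and fell by 0.60 (SE 0.11, adjusted p = 0.000473 by edgeR). Atp5o was measured at 160, 137, 132 and 139 CPM in WSD+beta-Glucan and at 219, 199, 204, 172 and 178 CPM in CTRL+beta-Glucan, and fell by 0.45 (SE 0.09, adjusted p = 0.000824 by edgeR). The groups did not overlap for either gene, which held in this direction for 17 of 92 nuclear members and 1455 of 13594 genes tested. Sdhd fell by 0.40 here (SE 0.11, adjusted p = 0.00805 by edgeR), at 142, 147, 153 and 179 CPM in WSD+beta-Glucan and 164, 185, 216, 214 and 245 CPM in CTRL+beta-Glucan, with overlap. Sdha stood at 0.04, Sdhaf1 at 0.21 and Ndufa4l2 at 0.59, and none of these passed (adjusted p = 0.781, 0.286 and 0.067 by edgeR).

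**Figure D5:**
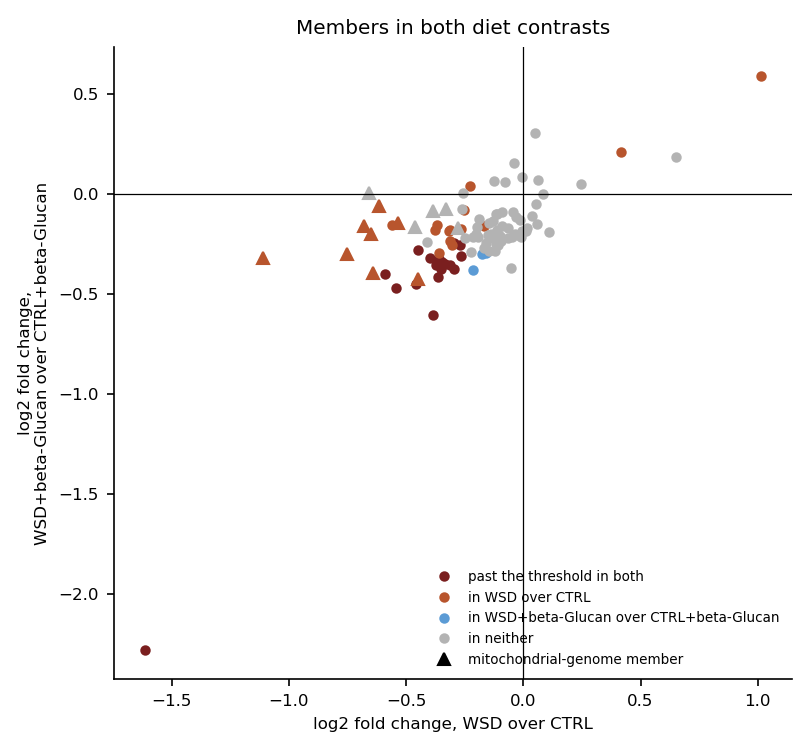
Log2 fold change of WSD over CTRL (x axis) and of WSD+beta-Glucan over CTRL+beta-Glucan (y axis) for the 105 tested members, with TMM scaling. Colours give the contrasts in which a member passed an edgeR adjusted p of 0.05, and triangles are mitochondrial-genome members. Most points lie below and left of 0, whereas with library totals the nuclear medians are 0.31 and 0.10, and mt-Co3, counted alone, stands at -1.11 on the x axis and -0.32 on the y axis (-0.39 and -0.08 with its copies).

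The effect of beta-glucan itself was tested within each diet, and no member passed in either. In WSD+beta-Glucan against WSD, none of 105 members was called, where 0.39% of all genes were (9 members had an unadjusted edgeR p under 0.05, and DESeq2 also called none). The median was 0.42 over the mitochondrial members, 0.04 over the nuclear members and 0.01 over all genes. The smallest p-values belonged to Ndufaf1, an assembly factor of complex I (0.30, SE 0.10), mt-Co3 (0.55, SE 0.20) and Sdhaf3 (0.31, SE 0.14), with adjusted p = 0.14, 0.197 and 0.276 by edgeR. With its copies mt-Co3 stood at 0.32 (SE 0.20, adjusted p = 0.455 by edgeR). Ndufaf1 was measured at 23.8, 22.8, 19.5 and 22.4 CPM in WSD+beta-Glucan and at 19.3, 18.1, 16.9, 20.0 and 15.4 CPM in WSD, and the groups overlapped.

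In CTRL+beta-Glucan against CTRL, none of 105 members was called, where 0.00736% of all genes were (2 members had an unadjusted edgeR p under 0.05, and DESeq2 called none). The smallest p-values were those of Ndufa6, Cox8a and Ndufs7, at 0.22, 0.21 and 0.22, each with an adjusted p of 0.854 by edgeR. The difference between both beta-glucan effects, WSD diet minus CTRL diet, was called for no member, where 0.00736% of all genes were (2 had an unadjusted edgeR p under 0.05, and DESeq2 called none). It was 0.79 for mt-Co3 (SE 0.27, adjusted p = 0.258 by edgeR), 0.41 for Sdhaf3 (adjusted p = 0.347 by edgeR) and 0.27 for Sdha (adjusted p = 0.395 by edgeR). With copies added the difference for mt-Co3 was 0.31 (SE 0.28). A p that misses the threshold does not show that beta-glucan left these genes as they were: for mt-Co1 the 95% interval of the effect in the WSD diet, from its SE, ran from 0.06 to 0.80 on the log2 scale (0.05 to 0.74 with its copies), and for Atp5b from -0.03 to 0.30. These intervals are for single genes and are not adjusted for the number of genes tested, so one that leaves out 0 is not a call.

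Genes that make, regulate or feed the chain were counted in lists, to be read against all genes tested, of which 27.1% fell and 26.0% rose in WSD with TMM and 4.54% fell and 57.9% rose with library totals. A share near these is not a result about a list. In WSD against CTRL with TMM scaling, 23 of 78 mitochondrial ribosomal protein genes fell and 2 rose, and with library totals 1 fell and 48 rose, and the count that fell stood near the share of all genes. Of 28 genes that transcribe, copy or process mitochondrial DNA and RNA, 14 fell and 1 rose with TMM (none and 9 with totals). The mitochondrial transcription factor Tfam, the RNA polymerase Polrmt, the transcription factor Tfb2m and the RNA stabiliser Lrpprc stood at -0.44, -0.48, -0.61 and -0.57 (adjusted p = 0.000475, 0.000278, 0.000221 and 1.89e-05 by edgeR), and at 0.02, -0.02, -0.14 and -0.10 with library totals.

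Of 8 tested regulators of mitochondrial biogenesis 4 fell, and none rose with TMM, while 1 fell and 2 rose with totals. Ppargc1a, the coactivator PGC-1alpha, averaged 3.59 ± 0.608 CPM in WSD and 8.28 ± 3.17 CPM in CTRL and was lower under both scalings (-1.21 with TMM, -0.74 with totals, adjusted p = 0.000407 and 0.00724 by edgeR). The nuclear receptor Esrra, the ETS factor Gabpa and Yy1 fell by 0.35, 0.45 and 0.31 with TMM and stood at 0.12, 0.02 and 0.16 with totals, and Nrf1 stood at -0.15 with TMM.

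Of 41 tested assembly factors and carriers outside the naming rule, 12 fell and 4 rose with TMM (none and 28 with totals), again near the share of all genes that fell. Among them Atpif1, the inhibitor of ATP hydrolysis by complex V, averaged 17.4 ± 2.99 CPM in WSD and 7.81 ± 1.30 CPM in CTRL and rose by 1.16 (adjusted p = 2.2e-06 by edgeR), and Cyc1, cytochrome c1, fell by 0.40 with TMM and stood at 0.06 with totals. Of 18 genes of ubiquinone synthesis and other electron entry, 6 fell and 2 rose (1 and 12 with totals). Etfdh, which passes electrons from fatty acid oxidation to ubiquinone, averaged 256 ± 30.1 CPM in WSD and 448 ± 32.3 CPM in CTRL and was lower under both scalings (-0.81 with TMM, -0.35 with totals). Of 17 tricarboxylic acid cycle genes 7 fell and 3 rose (1 and 10 with totals), and of 11 tested nucleotide and proton carriers 4 fell and 4 rose (1 and 8 with totals), and those that rose included the uncoupling protein gene Ucp2 at 1.96 and the ATP/ADP carrier gene Slc25a4 at 1.98.

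Nuclear respiratory genes are known to share promoter motifs bound by NRF1, ETS factors such as GABP, and YY1. RefSeq promoters (build GRCm38.p6, 250 bases before to 50 after the start) were matched by symbol for 78 of 97 nuclear symbols, 83 promoters in all. The NRF1-type motif (GCGC, any base, then TGCGC), searched on both strands like the others, was in 26.5% of the members' promoters and in 4.6% of all 32851 promoters. The ETS-type motif CCGGAAG was in 25.3% and 8.86%, and the YY1-type motif ATGGCGG in 16.9% and 4.05%. Among members with a promoter, the NRF1-type motif was found for 8 of 25 that fell in WSD and 13 of 53 others, the ETS-type motif for 5 of 25 and 16 of 53, and the YY1-type motif for 3 of 25 and 10 of 53.

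The 250 bases before the start are shown for a pair of genes that fell in both diet comparisons, Sdhd with an NRF1-type and an ETS-type match (in capitals, both as read on the opposite strand) and Atp5b, where none of the 3 motifs was found in these bases. A match is a description of letters and not a binding site.
Sdhd, chr9:50603850-50604099, minus strand: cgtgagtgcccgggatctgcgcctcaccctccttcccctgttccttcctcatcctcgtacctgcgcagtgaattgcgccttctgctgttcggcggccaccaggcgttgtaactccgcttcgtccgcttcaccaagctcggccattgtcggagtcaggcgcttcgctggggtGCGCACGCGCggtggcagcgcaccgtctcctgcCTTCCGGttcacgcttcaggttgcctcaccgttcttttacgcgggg
Atp5b, chr10:128083057-128083306, plus strand: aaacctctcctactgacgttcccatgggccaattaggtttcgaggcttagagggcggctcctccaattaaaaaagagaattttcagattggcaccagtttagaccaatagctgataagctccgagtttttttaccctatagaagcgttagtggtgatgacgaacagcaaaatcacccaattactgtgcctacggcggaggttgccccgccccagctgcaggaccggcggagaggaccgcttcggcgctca

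Transcript shares were described for 77 transcripts of 34 member genes that held a mean of 10 to 90% of their gene's TPM, and 3 of them did not overlap between WSD and CTRL. Among the transcripts of all genes within the same limits 6.0% did not overlap, so this count is no result about the members. The 3 were singled out after their values were seen and carry no test. The coding transcript ENSMUST00000168099 of Ndufs1 held 14.1, 24.0, 18.6, 22.5 and 24.2% of the gene's TPM in WSD and 32.7, 32.7, 35.6, 30.1 and 38.3% in CTRL. A transcript of Ndufs6, an accessory subunit of complex I, held 91.5 ± 1.21% in WSD and 88.0 ± 1.52% in CTRL, and one of Sdhaf2 annotated for nonsense-mediated decay held 63.0 ± 5.87% in WSD and 50.7 ± 3.62% in CTRL (SD, n = 5 each).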

How the data were processed

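RNA-seq of 19 mouse liver libraries was deposited as 1 transcript table per library. Per the labels, total RNA was taken with the PureLink RNA Mini Kit and made into TruSeq Stranded mRNA libraries. The deposited values are estimated counts and TPM per transcript, with effective lengths (another unit, in bases), and the submitters' processing notes name Salmon 1.10.1, DESeq2 1.38.3 and GRCm39. The index and its annotation are not given in the sources used here. Of 116546 transcripts, 115977 were found in GENCODE M21, which gave gene names, and the others held at most 0.1095% of a library's reads. Counts were summed per gene and rounded.

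Groups were taken from the treatment label. The main test was edgeR 4.0.16 (R 4.3.3) in its robust quasi-likelihood form, with TMM scaling, its filter on low counts (13594 genes tested), all 4 groups in 1 fit, and Benjamini-Hochberg adjustment over all genes at a threshold of 0.05. The common dispersion was 0.0341. DESeq2 1.42.0, other scalings, no filter, a length offset, only both groups in the fit and left-out libraries were alternatives. The procedure was also run on simulated data in which few genes changed, equally up and down. That run does not bear on the choice of scaling. TPM served for descriptions and was not tested. Adding pseudogene copies (43 that share at least 100 words of 31 bases with a member) and leaving out CTRL replicates 3 and 4 (those with the lowest mitochondrial share in their group, so values without them depend on that choice and are not printed) were chosen after seeing the data. Named genes were the mitochondrial members, core subunits, tissue isoforms with their partners, per complex the 2 highest and 2 lowest called changes, the 3 smallest p-values of each beta-glucan contrast, and the pathway regulators. Other members were named to account for a count, and 1 member of the rule is counted but its values are not reported here. Members and lists were chosen with earlier results of these data known.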

Additional observations from a re-analysis of the deposited data

Results flagged for a closer look

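Of 136 groups of values examined for a library far from the rest, 7 held one, and chance gives about 1 in 20. In WSD+beta-Glucan, mt-Co1 was 9240 CPM in replicate 3, with the nearest other library at 12800 CPM. Atp5g1 was 172 CPM in WSD+beta-Glucan replicate 1, against 147 CPM in the nearest, and Ndufs7 was 60.1 CPM in replicate 2, against 73.7 CPM. In WSD, replicate 1 had the highest Sdhaf1 level, 20.1 CPM with the nearest at 14.9 CPM, and the lowest ratio of mitochondrial to nuclear members, 1.54 with the nearest at 2.10. CTRL+beta-Glucan replicate 3 had a nuclear share of 1.34% of counts, with the nearest at 1.19%. CTRL replicate 5 had 0.618 CPM of Ndufa4l2, with the nearest at 0.933 CPM.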

How the results depend on the processing

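Scaling moved the results most. With library totals alone, WSD against CTRL had 58 nuclear members higher and 1 lower and 1 mitochondrial member lower, and WSD+beta-Glucan against CTRL+beta-Glucan had 10 nuclear members higher and 1 lower. The log2 fold changes in WSD that turned positive with library totals included mt-Nd6 0.019, Ndufv1 0.064, Sdha 0.24, Uqcrc1 0.20, Uqcrc2 0.21, Uqcrfs1 0.17, Atp5a1 0.086, Atp5b 0.013, Atp5g1 0.13, Atp5g3 0.10, Cox7a2l 0.30, Cox7b 0.15, Ndufa4 0.20, Ndufaf4 0.10, Uqcrh 0.10, Atp5o 0.0057 and Ndufs7 0.080. The mitochondrial members lower in WSD numbered 5 without the filter and 5 with only both groups in the fit. For WSD+beta-Glucan against CTRL+beta-Glucan, no filter gave 1 nuclear member higher, only both groups in the fit gave 10 lower, leaving out 3 libraries (replicates 1 and 2 of CTRL+beta-Glucan, replicate 1 of WSD+beta-Glucan) gave 11 lower, and DESeq2 and the length offset gave 1 and 2 mitochondrial members lower. The cause was not tested.

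Leaving out each replicate in turn gave 1 to 3 nuclear members higher, 24 to 33 lower and 4 to 9 mitochondrial members lower in WSD against CTRL. It gave 0 to 1 nuclear members higher, 13 to 31 lower and 0 to 1 mitochondrial members lower in WSD+beta-Glucan against CTRL+beta-Glucan. No paired analysis was possible because replicate numbers were given in accession order and pair no samples across groups. Members with few reads, such as Cox6b2, are limited by depth.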
